A study of Homo sapiens with 12 samples.

Results

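A set of 127 genes, of 35238 in the expression table, was near the limit of detection in vehicle-treated HK-2 cells and was measured in every library of cells exposed to aristolochic acid I (AAI). Members had a mean under 0.5 CPM (reads of a gene scaled to a common library total) over the 6 DMSO libraries and at least 3 CPM in each of the 6 AAI libraries. CILP2, ALPK3, GP5, CHD5 and GRAMD2, of which 3 met these limits, were left out by the definition. The members were chosen by their measured CPM alone. In all, 20691 genes of the table met the DMSO limit. Because AAI and DMSO values selected the genes, the levels with and without AAI are given as a description with no test.

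A gene is called silent here if its mean was under 0.5 CPM over the DMSO libraries. Such a low count does not show that its promoter is unused. RNA polymerase II normally ends transcription past the last exon of each gene, and where it does not, the reads of a following gene can come from RNA that began in the gene ahead of it. AAI is a plant toxin that enters proximal tubule cells and forms bulky DNA adducts, which block the polymerase on the template strand and cause the kidney injury known as aristolochic acid nephropathy.

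HK-2 is an established line of human kidney proximal tubule cells immortalized with papillomavirus genes. The cells were transfected with 10 nM of a scrambled siRNA duplex (SCR) or of a duplex against POLR2A (siB), and were given 25 µM AAI or the same volume of its solvent, DMSO, from the time of transfection for 24 hours. POLR2A is the gene of RPB1, the catalytic subunit of this polymerase. The groups, SCR DMSO, SCR AAI, siB DMSO and siB AAI, rest on the sample titles, since the treatment field of the labels gives DMSO for all 12 samples. Each had 3 replicates, and polyadenylated RNA was sequenced in 12 libraries. All groups carried an siRNA and none was untransfected, and nothing states whether the replicates were separate cultures, so p-values measure only the spread between these samples. In bulk RNA, fewer cells that make a transcript and less of it per cell cannot be told apart.

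Depth ran from 15844015 reads in siB AAI replicate 1 to 42805294 in SCR DMSO replicate 2, and a count of 0 allowed up to 0.0701 to 0.189 CPM (3 reads of the total, counting error only). POLR2A was at 258, 288 and 306 CPM in SCR DMSO and at 138, 143 and 139 CPM in siB DMSO. In AAI it was at 673, 719 and 729 CPM in SCR cells and at 266, 220 and 210 CPM in knockdown cells, with no overlap of SCR and siB libraries in either treatment. All 6 general epithelial markers examined were above 1 CPM, and of 12 proximal tubule markers 4 had a mean of at least 1 CPM over the DMSO libraries and 6 over the AAI libraries. Among these GGT1 and PDZK1 were highest, with group means of 112 to 175 CPM and 30.5 to 56.6 CPM, whereas AQP1, SLC22A6 and SLC22A8 were under 1 CPM in all groups. The blood markers CD3E, LYZ and HBB were under 1 CPM in all groups, and the summed list of 5 blood markers ran from 0.335 to 1.34 CPM in DMSO, from 1.21 to 1.82 CPM in SCR AAI and from 3.70 to 3.98 CPM in siB AAI. The part of other cell types in the levels below was not tested.

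Together the 127 members took 0.00229% to 0.00310% of the reads of a DMSO library, 0.126% to 0.152% of an SCR AAI library and 0.141% to 0.191% of a siB AAI library. Their mean over the AAI libraries ran from 3.74 to 51.9 CPM with a median of 8.46 CPM, and their median mean over the DMSO libraries was 0.170 CPM. Most were therefore weak transcripts even in AAI: 54 had a mean of 10 CPM or more and 16 of 20 CPM or more. The median ratio of AAI to DMSO group means was 49.7 in SCR cells and 73.1 in knockdown cells, with members that had no DMSO read entered at their lower bound. No read at all was found in SCR DMSO for 4 members and in siB DMSO for 8, and 2 (AOC4P and AC007041.2) had none in any DMSO library.

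**Figure D1:**
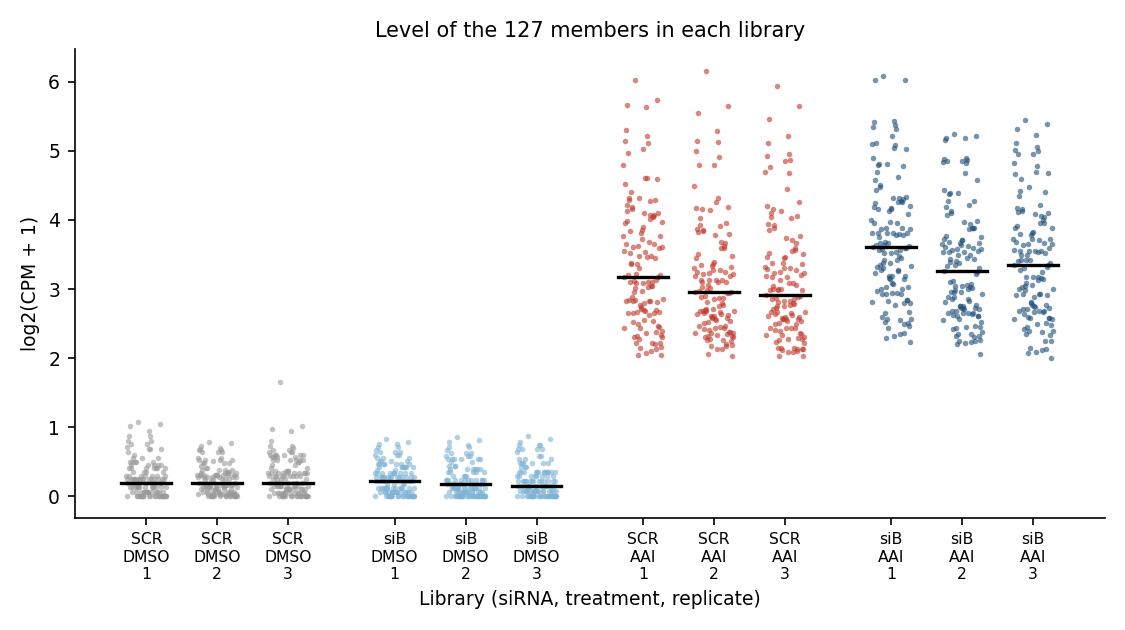
Level of each of the 127 members in each of the 12 libraries as log2(CPM + 1), 1 point per gene, with a black line at the median of the library. The DMSO libraries lie near 0 and the AAI libraries from 2 upward, as the definition requires, and siB AAI replicate 1 has the highest median, 11.2 CPM.

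The highest single value of any member in a DMSO library was 2.13 CPM, for CXCR5, the chemokine receptor of follicular B cells, in SCR DMSO replicate 3. CXCR5 had 0 reads in SCR DMSO replicate 1 and in all siB DMSO libraries, and from 6.0 to 13.1 CPM in AAI. It overlaps BCL9L on the other strand, and reads of such pairs cannot be told apart here. At the DMSO limit, CSH2 (mean 0.490 CPM) and EFEMP2 (0.482 CPM) were just inside, and NPB and ZNF763 (both 0.517 CPM) just outside. At the AAI limit, CD226 (lowest AAI library 3.0009 CPM) and CDRT1 (3.08 CPM) were just inside, and SPACA4 (2.9998 CPM) and CORT (2.99 CPM) just outside. SPACA4 and CORT had AAI means of 4.40 and 4.96 CPM, above the 3.74 CPM of CDRT1, so the edge of the set is not sharp.

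Many members began close past the end of a gene that the cells already expressed. To show how short the stretch between them can be, the whole of it is given for the 3 closest such pairs, from hg38 in the direction of transcription. Capitals mark a CCAAT box (CCAAT) or a GC box (GGGCGG) on either strand. A TATA box (TATAAA), AP-1 site (TGANTCA), cAMP response element (TGACGTCA) and E-box (CACGTG) were also searched on both strands and their letters were not in these windows.
LAMB2 to USP19, chr3:49120939-49121113, minus strand: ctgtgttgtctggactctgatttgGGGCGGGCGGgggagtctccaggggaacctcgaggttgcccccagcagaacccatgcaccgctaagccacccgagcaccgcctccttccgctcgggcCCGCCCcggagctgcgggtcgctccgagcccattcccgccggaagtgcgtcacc
TPM3 to NUP210L, chr1:154155117-154155307, minus strand: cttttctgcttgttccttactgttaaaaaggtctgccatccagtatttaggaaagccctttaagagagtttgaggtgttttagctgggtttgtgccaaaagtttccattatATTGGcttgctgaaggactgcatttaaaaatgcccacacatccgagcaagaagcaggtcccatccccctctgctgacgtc
RPL18 to FAM83E, chr19:48615077-48615327, minus strand: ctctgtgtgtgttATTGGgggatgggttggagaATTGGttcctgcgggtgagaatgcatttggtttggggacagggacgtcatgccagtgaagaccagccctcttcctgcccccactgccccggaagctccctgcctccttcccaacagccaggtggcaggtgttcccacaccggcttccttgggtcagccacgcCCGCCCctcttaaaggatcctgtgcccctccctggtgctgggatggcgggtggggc

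The stretches are 175, 191 and 251 bases long. The one ahead of USP19 holds 3 GC boxes, of which 2 overlap, 16 CpG dinucleotides and 69.7% G and C. The one ahead of NUP210L holds 1 CCAAT box, 2 CpG dinucleotides and 44.5% G and C, and the one ahead of FAM83E 2 CCAAT boxes, 1 GC box, 7 CpG dinucleotides and 62.5% G and C. The 3 members thus shared a short distance to the gene ahead but not the composition of the DNA between. In the RefSeq promoter table (GRCh38.p14, 250 bases before to 50 after each start), 34.6% of 35116 promoters hold a CCAAT box and 45.0% a GC box. Of the 127 members, 76 (59.8%) have a promoter in that table, under the 80% needed, so a comparison of motifs or base composition over the members is void.

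For 2 secreted proteins described below, FGF18 and MATN4, the 250 bases before the RefSeq start are shown because each begins several kb past the gene ahead. The same motifs were searched and capitals mark the same boxes.
FGF18, chr5:171419397-171419646, plus strand: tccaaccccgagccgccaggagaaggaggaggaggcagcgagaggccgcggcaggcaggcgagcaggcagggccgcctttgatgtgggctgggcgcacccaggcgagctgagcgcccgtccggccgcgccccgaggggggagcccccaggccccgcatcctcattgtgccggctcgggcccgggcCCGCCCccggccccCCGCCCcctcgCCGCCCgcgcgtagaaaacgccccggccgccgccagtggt
MATN4, chr20:45308530-45308779, minus strand: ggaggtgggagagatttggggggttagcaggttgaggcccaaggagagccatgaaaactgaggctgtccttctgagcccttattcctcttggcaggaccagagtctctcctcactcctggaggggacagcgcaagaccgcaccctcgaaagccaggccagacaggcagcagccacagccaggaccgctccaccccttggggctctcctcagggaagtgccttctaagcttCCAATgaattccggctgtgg

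FGF18 has a GC-rich promoter with 3 GC boxes and 31 CpG dinucleotides in 78.8% G and C. MATN4 has 1 CCAAT box and 5 CpG dinucleotides in 60% G and C.

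The 12 members with the highest mean in AAI held 27.9% of the summed AAI level of the set. They encode proteins of unrelated tissues: muscle, blood, brain, gut, liver, cartilage and testis. Gene positions are on hg38 with GENCODE release 44.

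FAM83E (chr19:48599961-48615076, minus strand), a scaffold protein of the FAM83 family, was the highest. It was at 64.3, 70.7 and 60.6 CPM in SCR AAI and at 40.5, 36.3 and 38.7 CPM in siB AAI, against 0.0368 to 0.234 CPM in SCR DMSO and 0.0427 to 0.112 CPM in siB DMSO. It begins 252 bp past RPL18, a ribosomal protein gene whose mean was 523 CPM without and 514 CPM with AAI in SCR cells. EFCAB8 (chr20:32858923-32961845, plus strand), which carries calcium-binding EF hands, was at 48.6, 45.9 and 49.1 CPM in SCR AAI and at 39.8, 37.0 and 36.4 CPM in siB AAI, from at most 0.167 CPM in any DMSO library. It begins 8518 bp past MAPRE1, a microtubule end-binding protein gene.

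PYGM (chr11:64746389-64759974, minus strand), the glycogen phosphorylase of skeletal muscle, was at 52.3, 29.0 and 29.3 CPM in SCR AAI and at 64.4, 35.3 and 42.8 CPM in siB AAI, with 0.214 to 0.613 CPM in DMSO. Replicate 1 was the highest in both AAI groups. FERMT3 (chr11:64205926-64223896, plus strand), a kindlin that activates integrins in blood cells, was at 49.9, 49.1 and 43.2 CPM in SCR AAI and at 31.9, 27.9 and 31.0 CPM in siB AAI. It begins 1383 bp past STIP1 and overlaps TRPT1 on the other strand. As no source states whether counting used strand, reads of the 2 genes cannot be told apart.

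FGF18 (chr5:171419647-171457626, plus strand), a fibroblast growth factor of bone and lung development, was at 34.3, 31.0 and 36.3 CPM in SCR AAI and at 41.8, 35.3 and 40.9 CPM in siB AAI, from 0 to 0.552 CPM in DMSO. It begins 7837 bp past NPM1, the nucleophosmin gene. LCT (chr2:135787850-135837184, minus strand), intestinal lactase, was at 36.2, 34.0 and 33.6 CPM in SCR AAI and at 38.8, 34.7 and 31.3 CPM in siB AAI, from at most 0.112 CPM in DMSO. It begins 2442 bp past MCM6, which encodes a subunit of the replicative helicase. The AAI groups of both genes overlapped.

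C8G (chr9:136945185-136946975, plus strand), the gamma chain of complement component C8 made in liver, was at 30.4, 38.2 and 28.3 CPM in SCR AAI and at 33.3, 28.2 and 30.1 CPM in siB AAI. It begins 18578 bp past TRAF2 and within 2 kb of the start of FBXW5 on the other strand. SV2A (chr1:149903318-149917844, minus strand), a synaptic vesicle glycoprotein, was at 33.6, 16.7 and 18.1 CPM in SCR AAI and at 42.1, 27.6 and 29.96 CPM in siB AAI. GRM2 (chr3:51707068-51718613, plus strand), a metabotropic glutamate receptor of neurons, was at 31.6, 26.9 and 24.6 CPM in SCR AAI and at 26.9, 28.7 and 26.5 CPM in siB AAI. The AAI groups overlapped for C8G, SV2A and GRM2.

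KIAA1683 (now IQCN, chr19:18257098-18274500, minus strand), an IQ motif protein of sperm, was at 23.2, 14.6 and 9.94 CPM in SCR AAI and at 64.4, 22.8 and 27.4 CPM in siB AAI. MATN4 (chr20:45293445-45308529, minus strand), the cartilage and matrix protein matrilin 4, was at 18.9, 6.03 and 5.25 CPM in SCR AAI and at 67.1, 28.5 and 33.7 CPM in siB AAI. In both genes replicate 1 was far above replicates 2 and 3 within each AAI group. ACTL7B (chr9:108854588-108855986, minus strand), a single-exon actin-like gene of the testis, was at 22.0, 18.9 and 17.3 CPM in SCR AAI and at 36.2, 27.2 and 32.4 CPM in siB AAI, with 0 reads in 4 of 6 DMSO libraries.

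**Figure D2:**
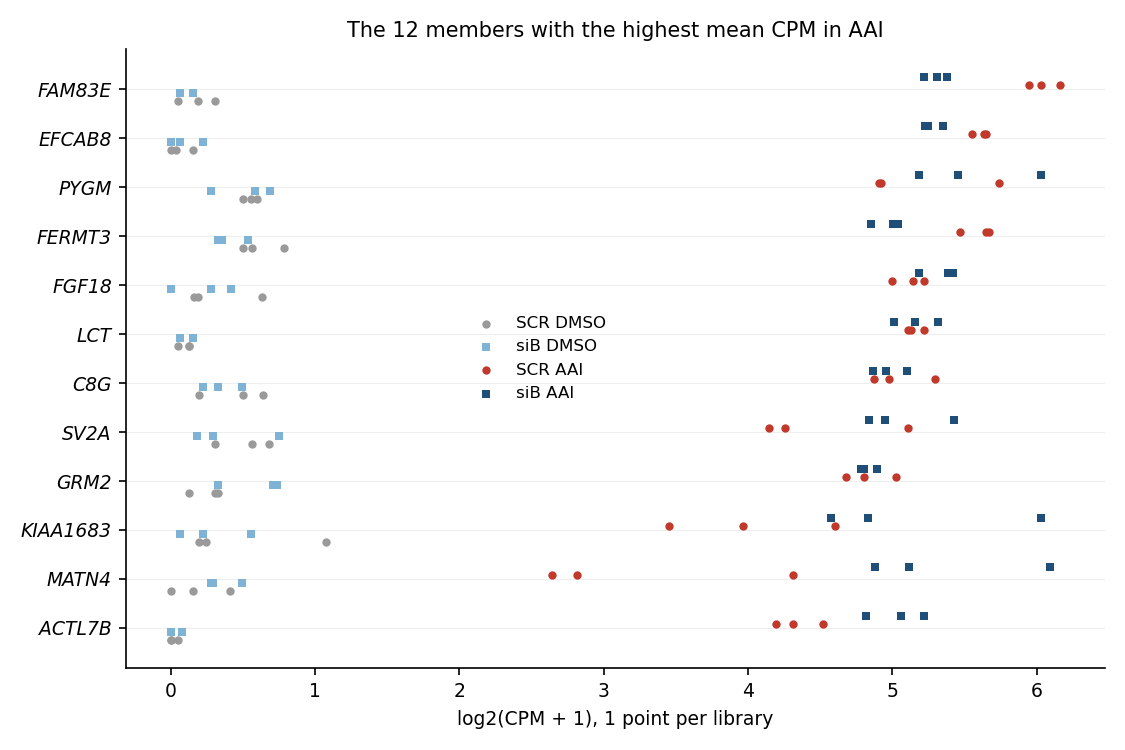
The 12 members with the highest mean CPM in AAI, as log2(CPM + 1), with 1 point per library and 3 libraries per group. All DMSO values lie near or below 1, and in AAI the siB values of FAM83E and FERMT3 lie below the SCR values, those of MATN4 and ACTL7B above, and those of LCT and GRM2 among them.

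Members were counted in lists of genes by function, to be read beside the 0.614% of all 20691 silent genes and the 1.97% of 5531 silent protein-coding genes with a position that were members. These counts carry no test. Of 43 silent growth factor genes in the list, other than those of the TGF-beta family, 3 (6.98%) were members: FGF18, FGF8 and WNT4. FGF8, which patterns the embryonic brain and limbs, was at 17.3, 13 and 12.4 CPM in SCR AAI and at 15.0, 10.6 and 11 CPM in siB AAI. WNT4, a ligand that drives formation of kidney tubules in the embryo, was at 3.20, 6.71 and 5.29 CPM in SCR AAI and at 11.2, 11.1 and 10.8 CPM in siB AAI. None of 18 silent TGF-beta family ligands was a member. IL17C, an epithelial cytokine, was the only member of 98 silent cytokine and chemokine genes (1.02%), at 9.88, 11.3 and 10.5 CPM in SCR AAI and at 13, 10.3 and 11.7 CPM in siB AAI, against a single DMSO library with reads (0.0368 CPM).

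Receptors and channels gave 3 members each. Of 1008 silent G protein-coupled receptor genes, a list that includes the olfactory and taste receptors, 3 (0.298%) were members: GRM2, the orphan receptor GPR25 and CXCR5. GPR25 had no read in SCR DMSO and was at 10.5, 8.29 and 4.66 CPM in SCR AAI and at 17, 11.3 and 12.9 CPM in siB AAI. Of 150 silent ion channel genes, 3 (2%) were members, near the share of all silent protein-coding genes. P2RX2, an ATP-gated channel, ran from 5.95 to 18.7 CPM over the AAI libraries, KCNT1, a sodium-activated potassium channel, from 5.72 to 13 CPM and KCNE5, an accessory potassium channel subunit, from 4.23 to 6.88 CPM.

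Genes of muscle, nerve and blood gave 1 to 3 members a list. Of 57 silent muscle and heart genes, 2 (3.51%) were members, PYGM and ACTA1. ACTA1, skeletal muscle actin, was at 13.4, 7.30 and 8.496 CPM in SCR AAI and at 18.4, 13.8 and 14.5 CPM in siB AAI. Of the other 3 muscle markers examined, MYH7 and DES were under 1 CPM in all groups, and TNNT2, cardiac troponin T, ran from 0.35 to 1.66 CPM in SCR DMSO, from 0.861 to 6.46 CPM in SCR AAI, from 0.335 to 0.727 CPM in siB DMSO and from 2.26 to 11.3 CPM in siB AAI. The AAI and DMSO ranges of TNNT2 overlapped in SCR cells and did not in knockdown cells. JPH3, which joins membranes in neurons, was the only member of 38 silent nervous system genes (2.63%) and ran from 4.53 to 9.06 CPM in AAI. That list lacks SV2A, GRM2, TBR1, SLC6A3 and CPT1C, members described elsewhere in this text by a role in nerve or brain. Of 165 silent blood and immune genes, 3 (1.82%) were members: CTSW and GZMM, proteases of cytotoxic lymphocytes, and CD226, an activating receptor of such cells. They ran from 4.47 to 9.75 CPM, from 4.11 to 7.01 CPM and from 3.0 to 4.43 CPM in AAI. The blood list lacks CXCR5, FERMT3, HCLS1, MYO1G, AZU1, IL3RA and LYL1, so neither share covers all such genes in the set. JPH3 overlaps KLHDC4 and CTSW overlaps FIBP on the other strand, and reads of such pairs cannot be told apart here.

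Of 142 silent genes in the liver list, 5 (3.52%) were members: C8G, CYP2C18, APOA1, CYP21A2 and CYP21A1P. CYP2C18, a cytochrome P450, was at 6.02, 5.57 and 6.07 CPM in SCR AAI and at 9.72, 11.4 and 7.93 CPM in siB AAI. APOA1, the main protein of high-density lipoprotein, ran from 3.09 to 5.77 CPM in AAI. CYP21A2 is the steroid 21-hydroxylase of the adrenal gland, not of liver, and CYP21A1P is its pseudogene. They entered the list by their name, and reads of such near-identical copies can be split between them.

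Among developmental transcription factors, 6 of 165 silent genes (3.64%) were members. These were the pituitary and motor neuron factor LHX3, at 10.8, 7.75 and 6.97 CPM in SCR AAI and at 13.7, 14.7 and 12.2 CPM in siB AAI, and 5 forkhead genes of 1 duplicated family, FOXD4, FOXD4L1, FOXD4L3, FOXD4L4 and FOXD4L5. The FOXD4 copies are nearly identical and their separate values are uncertain. In siB AAI all 3 libraries were below all SCR AAI libraries for FOXD4, FOXD4L3, FOXD4L4 and FOXD4L5, while the groups overlapped for FOXD4L1, the highest of the family at 12 to 18.6 CPM. Of 200 silent germline and cancer-testis genes, 3 (1.5%) were members: ACTL7B, its neighbour ACTL7A (3.42 to 5.36 CPM in AAI) and TDRD12 (7.79 to 18.1 CPM), which acts in the silencing of transposons.

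Other lists held no member. None of 3 silent p53 targets, 3 silent early response factors of the AP-1, EGR and NR4A families, 129 silent zinc finger (ZNF) genes, 66 silent histone genes and 189 silent keratin genes met the definition. At the share of all silent protein-coding genes, a list of 3 would rarely hold a member, and nothing is read from these counts of 0. Of 189 silent solute carrier genes, 4 (2.12%) were members, and 1 of these, SLC7A9, which carries cystine in the proximal tubule, was also the only member of 14 silent proximal tubule genes, at 3.37 to 6.63 CPM in AAI. Long noncoding RNA symbols, 6414 of them silent, gave 6 members (0.0935%).

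A few further members are named here after their values were seen, because each is known for a tissue remote from kidney. TBR1, a transcription factor of the cerebral cortex, had no read in siB DMSO and was at 16.5, 13.3 and 16.8 CPM in SCR AAI and at 22.8, 24.7 and 24.4 CPM in siB AAI. RAPSN, which clusters acetylcholine receptors at the neuromuscular junction, was at 26.8, 16.9 and 20.8 CPM in SCR AAI and at 31.7, 19.7 and 20.1 CPM in siB AAI. ATP4B, a subunit of the gastric proton pump, ran from 4.34 to 7.01 CPM in AAI. These genes begin 4580 bp past PSMD14, 16790 bp past CELF1 and 162351 bp past GAS6, the nearest expressed gene ahead on the same strand.

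Some members outside the germline list are also known from germ cells. MSH4 and TERB1, which act in meiotic recombination and in telomere attachment during meiosis, ran from 3.99 to 5.81 CPM and from 3.17 to 5.36 CPM over the AAI libraries. PNLDC1, which trims the small RNAs that guard germ cells against transposons, was at 11.2, 8.66 and 8.22 CPM in SCR AAI and at 13.1, 12.7 and 12.1 CPM in siB AAI, with reads in 2 of 6 DMSO libraries. ZAR1, an oocyte factor, ran from 4.94 to 10.9 CPM, ACRBP, a protein of the sperm acrosome, from 5.48 to 9.09 CPM and TEKT4, a tektin of sperm tails, from 3.38 to 4.71 CPM. These genes, and those of the next 4 paragraphs, were named after their values were seen, to show the range of functions.

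IHH, the secreted ligand Indian hedgehog, was at 3.48, 4.53 and 3.45 CPM in SCR AAI and at 5.93, 5.77 and 4.98 CPM in siB AAI. Membrane proteins in the set included GPBAR1, a G protein-coupled bile acid receptor that the receptor list above lacks, at 12.1 to 18.1 CPM over the AAI libraries, and PKD1L1 and PKD1L3, relatives of polycystin, at 15.7 to 29.9 CPM and at 3.25 to 11.1 CPM. PKD1L1 was highest in SCR AAI replicate 3 and PKD1L3 in siB AAI replicate 1. PKD1L3 overlaps IST1 on the other strand, and reads of such pairs cannot be told apart here. SLC6A3, the dopamine transporter, was at 4.80, 4.03 and 4.03 CPM in SCR AAI and at 10.2, 8.63 and 8.04 CPM in siB AAI.

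Matrix and adhesion genes included ITGA10, a collagen-binding integrin chain, at 23.4, 14.2 and 15.4 CPM in SCR AAI and at 33, 28 and 24.7 CPM in siB AAI. COL20A1, a collagen, was at 12.6, 11.1 and 8.77 CPM and at 23.6, 13.6 and 16.3 CPM in the same groups. SULF2, which removes sulfate from heparan sulfate, was at 10.7 to 13.8 CPM over the AAI libraries, and it begins far from an expressed gene ahead, 1326723 bp past STAU1. SULF2 overlaps NCOA3 on the other strand.

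Enzymes and blood cell proteins were also in the set. CPT1C, the carnitine palmitoyltransferase of brain, was at 18.5, 17.3 and 15.7 CPM in SCR AAI and at 18.9, 17.2 and 16.2 CPM in siB AAI. The AAI groups overlapped. CTRB2, a chymotrypsinogen of the pancreas, ran from 6.07 to 25.0 CPM over the AAI libraries. EPHX3, an epoxide hydrolase, ran from 11.2 to 17.1 CPM and PLA2G4F, a phospholipase, from 5.76 to 11.7 CPM. HCLS1, a signalling protein of blood cells, was at 16.2, 8.97 and 11.7 CPM in SCR AAI and at 17.4, 8.91 and 11.8 CPM in siB AAI, with the replicates in the same order in both groups. IL3RA, a cytokine receptor chain, AZU1, a neutrophil granule protein, and LYL1, a factor of blood development, ran from 4.2 to 8.08, from 5.05 to 10.9 and from 3.22 to 5.08 CPM.

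Pseudogenes and near-identical copies accounted for several members whose reads may belong in part to a relative. By annotation 8 of the 120 members with a position (6.67%) are pseudogenes. ACTBP14, an actin pseudogene inside KIF1BP, was at 17.7, 15.3 and 16.2 CPM in SCR AAI and at 16.9, 13.8 and 17 CPM in siB AAI. BICD1P1 was at 15.5, 6.93 and 9.36 CPM and at 26.6, 11.8 and 16.8 CPM. The same limit holds for CSH2, a placental lactogen gene with near-identical neighbours, and for NPIPB6, a member of a duplicated family.

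Position along the chromosome was not used by the definition. It could be read for 120 members, because 7 have only clone-based names, and for 13092 of 13246 other silent genes with such names left out (98.8%). An expressed gene was 1 with a mean of at least 5 CPM in DMSO. Of the 120 members, 91 (75.8%) began inside such a gene on the same strand or within 30 kb past its end, against 1685 of the 13092 other silent genes (12.9%). With the others limited to those with at least 1 read in any library, their share was 1598 of 8684 (18.4%). Among protein-coding genes alone, chosen as a like-for-like set after the data were seen, the shares were 83 of 109 members (76.1%) and 843 of 5422 others (15.5%). No test and no interval is given for these shares, since neighbouring genes are not independent.

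The median distance from the end of the expressed gene ahead to the start of the member was 8256 bp (115 members that began outside one), against 395687 bp for the other silent genes. Relations to genes on the other strand were seen for few members. An expressed gene on the other strand overlapped 10 members (8.33%) and 8.74% of the others, and a start within 2 kb of an opposite-strand expressed gene's start was found for 3 members (2.5%) and 1.31% of the others. None of these relations applied to 24 members (20%) and to 79.0% of the others. A span under 30 kb was found for 84 members (70%) and for 85.2% of the others, of which 54.5% are pseudogenes. Among protein-coding genes the order was the opposite, with 69.7% of members and 67.4% of others under 30 kb, and 7.34% and 13.9% over 100 kb.

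Read the other way, the share of silent protein-coding genes that were members was lower beyond 10 kb from the expressed gene ahead than nearer to it. It was 7 of 53 (13.2%) within 1 kb, 20 of 104 (19.2%) from 1 to 3 kb, 30 of 233 (12.9%) from 3 to 10 kb and 22 of 455 (4.84%) from 10 to 30 kb. Beyond 30 kb it was 10 of 789 (1.27%) up to 100 kb and 9 of 2548 (0.353%) over 300 kb, with 1.97% of all 5531 silent protein-coding genes. Within 30 kb the share was 9 of 247 (3.64%) where the gene ahead was under 20 CPM, 37 of 417 (8.87%) from 20 to under 100 CPM and 33 of 181 (18.2%) at 100 CPM or more. Most silent genes that followed a strongly expressed gene were therefore still not members.

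**Figure D3:**
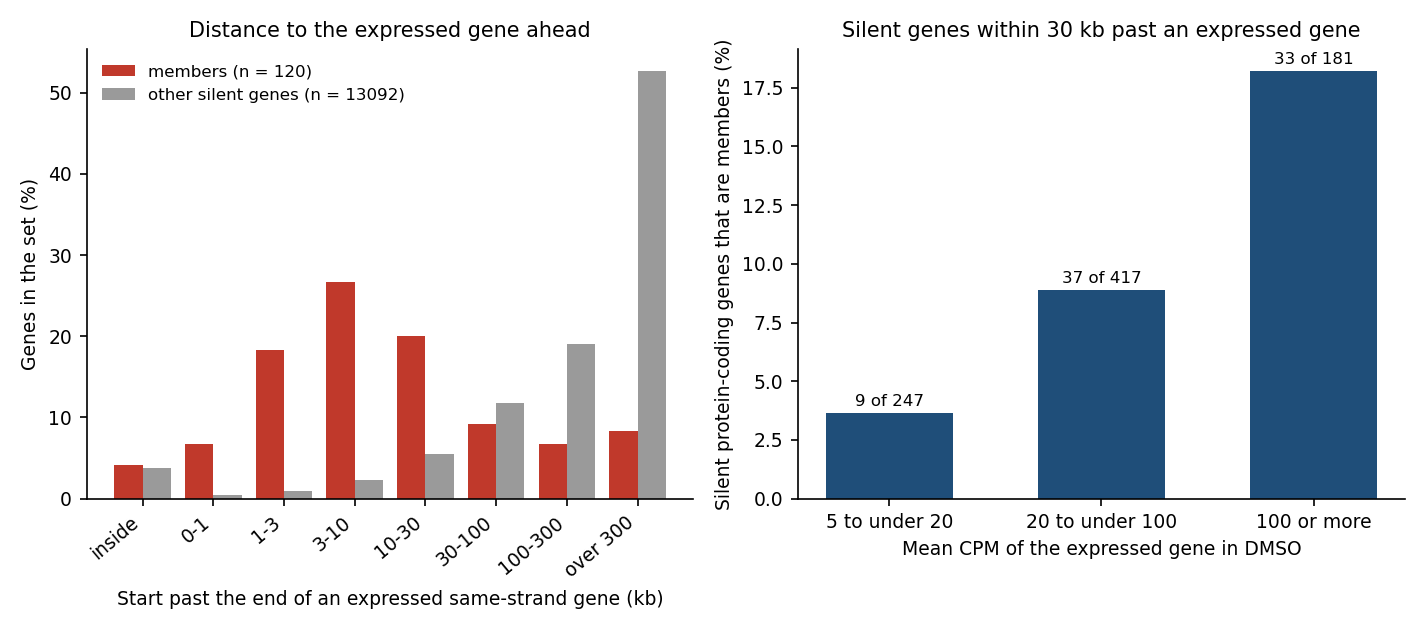
Left, the share (%) of 120 members and of 13092 other silent genes by the distance in kb from the end of an expressed same-strand gene to their start, where inside means that they begin within it and genes with no expressed gene ahead are not drawn. Right, the share (%) of silent protein-coding genes within 30 kb past an expressed gene that were members, by the mean DMSO CPM of that gene, from 3.64% to 18.2%.

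The expressed genes ahead of the 86 members that began within 30 kb past one were strong, with a median of 71.3 CPM in DMSO against 36.5 CPM for all expressed genes. Their mean was higher in AAI for 49 of 86 (57.0%), against 52.1% of all expressed genes, and the median log2 ratio of AAI to DMSO was 0.05 against 0.03. Per kb of exon, the AAI level of the members had a median of 22.3% of that of the gene ahead (quartiles 10.6% and 52.2%), and 10 of the 86 were above it. ACTL7B, at 18.3 CPM per kb against 4.07 CPM per kb for IKBKAP ahead of it, was among the latter. Exon length here joined all GENCODE exons of a gene, while reads were counted on a UCSC annotation. It was 24261 bases for IKBKAP and 1399 for ACTL7B, so a gene with many annotated exons is set low and these ratios are rough. B3GALT4, at 8.02 CPM per kb 612 bp past the ribosomal protein gene RPS18, was at 1.51% of it.

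A few members lie beside each other. TDRD12 and SLC7A9, on opposite strands, are 929 bp apart, CTSW and EFEMP2 6217 bp and ACTL7A and ACTL7B 6280 bp. CYP21A1P and CYP21A2, on the same strand, are 29928 bp apart, and GPR25 and MROH3P 43282 bp.

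The effect of POLR2A knockdown in AAI-treated cells asks how these genes behave when the supply of the polymerase subunit is lower. The definition set the same lower limit for both AAI groups and so did not choose members by their difference, but it did use these libraries. Another 154 silent genes were left out because they reached the limit in siB AAI alone, and 14 because they reached it in SCR AAI alone, so the test covers only genes at 3 CPM or more in both. All 127 members were among the 14946 genes tested with limma, and the shares over all genes tested carry no such limit. In siB AAI, 13 members (10.2%) rose against SCR AAI by 2-fold or more with an adjusted p below 0.05, compared with 3.04% of all genes tested. Another 3 members (2.36%) fell, against 0.629% of all genes tested. The median log2 difference of log2(CPM + 1), siB minus SCR, was 0.27 over the members and 0.00 over all genes, and 89 of the 127 were on the higher side. The full siB AAI range lay above that of SCR AAI for 40 members (31.5%, against 15.1% of all genes tested) and below it for 11 (8.66%, against 15.8%).

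MATN4 showed the largest change. From the CPM values given above, its mean went from 10.1 ± 7.66 in SCR AAI to 43.1 ± 21.0 in siB AAI (SD, n = 3), a log2 difference of 2.11 (SE 0.40, limma adjusted p 0.0088). ANKRD26P1, an ankyrin repeat pseudogene, was at 10.2, 4.08 and 6.46 CPM in SCR AAI and at 27.0, 19.9 and 20.4 CPM in siB AAI, a log2 difference of 1.63 (SE 0.27, adjusted p 0.00437). FCGBP, a mucus protein that binds the Fc part of IgG, was at 3.64, 4.21 and 3.37 CPM in SCR AAI and at 10.5, 12.1 and 14.5 CPM in siB AAI, a log2 difference of 1.49 (SE 0.21, adjusted p 0.00209). Among these 3 genes, the libraries of a group were closest to each other, relative to their mean, in FCGBP and farthest apart in MATN4.

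NUP210L, a nucleoporin-like gene of the testis, was at 3.59, 8.47 and 5.56 CPM in SCR AAI and at 19.0, 17.5 and 15.0 CPM in siB AAI, with a log2 difference of 1.46 (SE 0.26, adjusted p 0.00566). Its stretch to TPM3, printed above, is the second shortest in the set, and TPM3 itself was at 466 and 467 CPM in the AAI groups. AOC4P, an amine oxidase pseudogene without a read in DMSO, was at 5.52, 3.40 and 3.45 CPM in SCR AAI and at 17.2, 9.88 and 12.3 CPM in siB AAI. CASS4, a scaffold of focal adhesions, was at 15.6, 7.79 and 7.52 CPM and at 33.8, 20.54 and 25.0 CPM in the same groups. Their log2 differences were 1.45 (adjusted p 0.00515) and 1.32 (adjusted p 0.0121).

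The other members that rose were MUC20P1, a mucin pseudogene (1.29), the clone-named transcript CTD-3088G3.8 (1.21), MYO1G, a myosin of blood cells (1.12), EFEMP2, fibulin 4 of elastic fibres (1.09), ADCY5, an adenylyl cyclase (1.06), HSD17B3, which makes testosterone in the testis (1.04), and WNT4 (1.04), each on the log2 scale with adjusted p from 0.00406 to 0.0252. None of them had overlapping AAI groups. ADCY5, for example, was at 6.07, 4.85 and 5.36 CPM in SCR AAI and at 14.6, 11.2 and 11.6 CPM in siB AAI. EFEMP2 overlaps MUS81 on the other strand, and reads of such pairs cannot be told apart here.

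The 3 members that fell were B3GALT4, OIT3 and USP19. B3GALT4, a galactosyltransferase of ganglioside synthesis, was at 23.3, 34.3 and 26.2 CPM in SCR AAI and at 8.84, 10.9 and 10.3 CPM in siB AAI, a log2 difference of -1.38 (SE 0.20, adjusted p 0.003). OIT3, a liver protein, was at 18.4, 18.2 and 24.8 CPM and at 7.83, 6.92 and 10.6 CPM, a log2 difference of -1.19 (SE 0.22, adjusted p 0.00666). USP19, a deubiquitinating enzyme, was at 38.4, 26.8 and 27.8 CPM and at 16, 11.7 and 16.6 CPM, a log2 difference of -1.02 (SE 0.21, adjusted p 0.0115). All 3 begin within 6 kb past an expressed gene (612 bp past RPS18, 5890 bp past MCU and 176 bp past LAMB2), and B3GALT4 overlaps WDR46 on the other strand.

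With no fold limit, 17 members (13.4%) were higher and 5 (3.94%) lower, against 5.49% and 3.79% of all genes tested. With the replicate number as a block these members were 41 and 9. The share of all genes at that limit is not given, so this is not read as a result about the members. Genes with an unadjusted limma p under 0.05 also rose with the block, from 3814 to 5846 of all 14946 tested and from 45 to 66 of the members. Below the 2-fold limit, FAM83E had a log2 difference of -0.74 (adjusted p 0.0135), FERMT3 of -0.63 (adjusted p 0.0317) and ACTL7B of 0.69 (adjusted p 0.0362), without overlap of the AAI groups. PYY2, a relative of peptide YY (0.92, adjusted p 0.0172), and SLC6A3 (0.91, adjusted p 0.0168) were also higher. KIAA1683 had a log2 difference of 1.14 that missed the threshold (adjusted p 0.0636), and its AAI groups overlapped. With the replicate number as a block its limma adjusted p was 1.21e-10. That fit took its spread wholly from the trend across genes, with 2 residual degrees of freedom, and the labels state no pairing. FGF18 (0.21, adjusted p 0.46), LCT (0.01, adjusted p 0.982), GRM2 (-0.01, adjusted p 0.979) and C8G (-0.07, adjusted p 0.842) were not called.

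**Figure D4:**
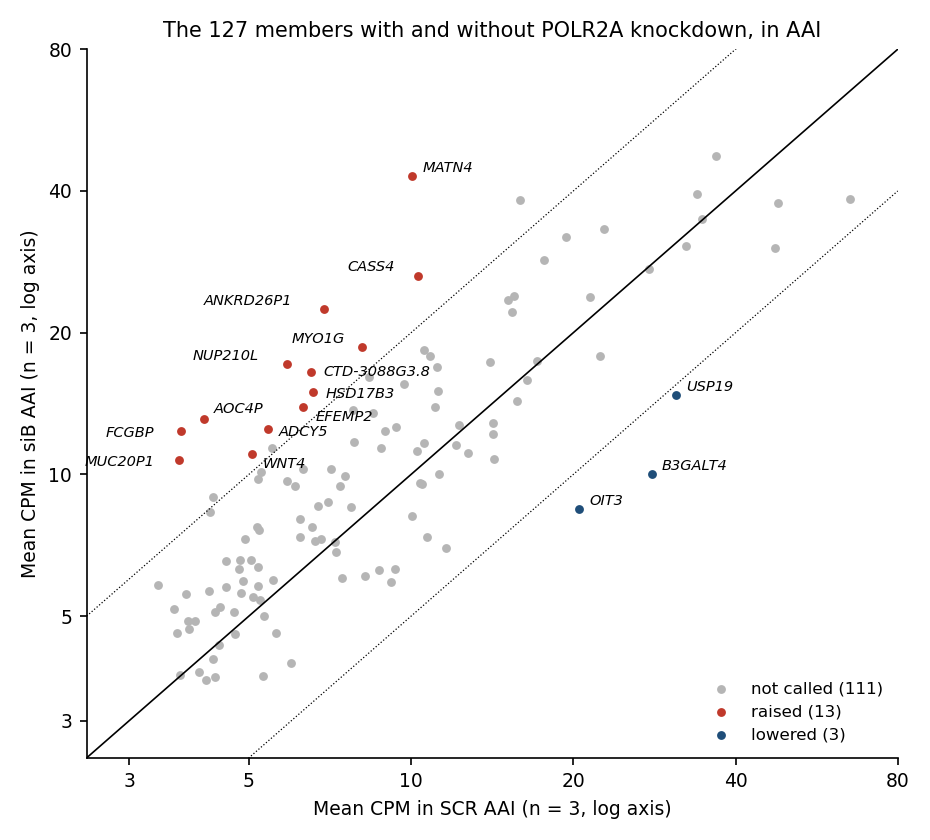
Mean CPM of each of the 127 members in SCR AAI (horizontal, log axis, n = 3) and siB AAI (vertical, log axis, n = 3), with a solid line at equal levels and dotted lines at a 2-fold difference. The 13 members that rose (red) include MATN4 at 10.1 and 43.1 CPM, and the 3 that fell (blue) lie from 20.49 to 31.0 CPM in SCR AAI.

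Position and knockdown were set side by side. The median log2 difference was 0.27 both for the 91 members that began inside or within 30 kb past an expressed gene and for the 29 farther away. Of the 91, 7 rose and 3 fell by the same limma test. Of the 29, 5 rose (MYO1G, FCGBP, MUC20P1, ADCY5 and WNT4) and 0 fell. Over all 14946 genes tested, 3.04% rose and 0.629% fell. Among those 5 genes, FCGBP alone kept its call in all 15 alternative settings given below. The difference between the classes was not tested, and nothing is read from counts this small.

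Replicate 1 stood apart in level. It was the highest of the 3 libraries for 79 members in SCR AAI and for 97 in siB AAI. The shallowest library, siB AAI replicate 1, held the highest value of all for 73 members. Over all silent genes, 244, 180 and 177 were at 3 CPM or more in SCR AAI replicates 1, 2 and 3. In siB AAI these were 571, 352 and 354, so replicate 1 was also high over the silent genes as a whole. The part of depth in this was not tested. Without siB AAI replicate 1 the median log2 difference of the members was 0.11 and 11 members rose. Without SCR AAI replicate 3, 2 members (FCGBP and CTD-3088G3.8) rose and 1 (B3GALT4) fell. Of all 14946 genes tested, 325 rose without siB AAI replicate 1, and 144 rose and 44 fell without SCR AAI replicate 3. With all libraries 454 rose and 94 fell, so the calls dropped over the whole table.

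Across the 6 AAI libraries, the 5 members whose log2(CPM + 1) followed FAM83E most closely were FERMT3 (Pearson's r 0.99), B3GALT4 (0.96), EFCAB8 (0.93), USP19 (0.92) and OIT3 (0.90). The libraries belong to only 2 groups, and the mean of each of these genes was lower in siB AAI than in SCR AAI, so the values describe a shared order of the libraries.

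With only the SCR libraries required to reach 3 CPM, 141 silent genes would have met the AAI limit, and with only the siB libraries 281. The 127 genes that did so in both were thus 90.1% of the first number and 45.2% of the second, and 154 silent genes reached it in siB AAI alone and 14 in SCR AAI alone. Per library, 177 to 244 silent genes were at 3 CPM or more in SCR AAI and 352 to 571 in siB AAI. No DMSO library could hold one, since a mean under 0.5 CPM over 6 libraries keeps each of them under 3 CPM.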

How the data were processed

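Bulk RNA sequencing of 12 HK-2 libraries was analysed, with groups and replicates taken from the sample titles (the treatment field gives DMSO for all 12). Per the study's methods, paired-end reads were aligned to hg38 and counted at gene level against a UCSC annotation through BioJupies. No aligner and no strand setting is given in the sources used here. The authors deposited log10 values, log10 of CPM plus 1, from which CPM was recovered, and all values were whole reads (within 0.1 read). Spreadsheet conversion had left 28 gene names as dates, which are not reported. A few other genes are not reported here.

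siB AAI was set against SCR AAI in R 4.3.3 with limma 3.58.1 (trended eBayes) on log2(CPM + 1), pseudocount 1, over genes with at least 1 CPM in at least 3 of the 6 libraries. P-values were adjusted by Benjamini-Hochberg over all 14946 genes, and calls needed an adjusted p under 0.05 and a 2-fold change. The script was tested on simulated data. Folds against a group without reads used 3 reads over the pooled reads of the group as a floor. Deviations of same-numbered AAI libraries from their group means correlated over 14946 genes (r 0.62, 0.32 and 0.30), and those of different number by -0.45 to 0.23, with numbers 2 and 3 hardly told apart. The labels do not state a pairing. The adjusted p-values printed are from the fit without a block unless a replicate block is named.

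Members, lists and tests were chosen with earlier results of these data known. By rule, the 12 highest members, up to 10 members called each way, up to 5 members of each functional list, genes at the limits and those most like the highest member were named. The other genes, with FOXD4L3 among the developmental factors and ADCY5 and HSD17B3 among the called, were named after their values were seen. Positions came from GENCODE release 44 by symbol, 8 members through an older one. Copies of duplicated genes and opposite-strand overlaps are uncertain. Fold changes on the log2(CPM + 1) scale understate changes of low genes.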

Additional observations from a re-analysis of the deposited data

How the results depend on the processing

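The number of members depended on its limits. It was 77 with a DMSO mean under 0.25 CPM, 202 under 1 CPM, 405 with 1 CPM required in AAI and 71 with 5 CPM, and 123 to 138 when each of the 12 libraries was left out in turn. The share of members inside or within a set distance past an expressed gene was 55.8% at 10 kb (other silent genes 7.37%) and 85% at 100 kb (24.6%).

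For siB against SCR in AAI, leaving out 1 library gave 2 to 15 members raised, 1 to 3 lowered and a median log2 difference of 0.11 to 0.33. Over all 14946 genes tested, leaving out 1 library gave 144 to 597 raised and 44 to 164 lowered. The fewest calls came without SCR AAI replicate 3 (2 raised, 1 lowered), and the lowest median without siB AAI replicate 1. Without the 2-fold limit 17 members (13.4%) were higher and 5 (3.94%) lower, against 5.49% and 3.79% of all genes tested. With the replicate block these members were 41 and 9, with no share of all genes at that limit to read them against. With that block 5846 of the 14946 genes tested had an unadjusted limma p under 0.05, against 3814 without it. With the 2-fold limit the replicate block gave 14 raised and 3 lowered (477 and 107 of all genes tested), adding KIAA1683. Its moderated spread had 2 residual degrees of freedom and came wholly from the trend across genes, so its adjusted p-values are very small. Another pseudocount, other filters, median-ratio scaling, all 4 groups in 1 fit, no trend and voom gave 10 to 15 raised and 3 lowered. Over the genes each of them tested, 134 to 622 were raised and 82 to 129 lowered. B3GALT4, FCGBP and CTD-3088G3.8 were called in all 15 alternatives, and the other 13 called members lost the call in 1 to 5 of them, each of the 13 when SCR AAI replicate 3 was left out. The causes of these changes were not tested. A pair of planned negative-binomial tests was not run because the deposited unit is a logarithm of CPM.

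A count of 0 allowed up to 0.0701 to 0.189 CPM in a library, so levels below that were not detectable at this depth.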
